A study of Mus musculus with 12 samples.

Results

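The 7 genes described here are the proneural basic helix-loop-helix (bHLH) genes Neurog1 and Neurog2, their relatives Neurod1, Neurod2, Neurod4 and Neurod6, and the T-box gene Eomes (also called Tbr2). They were chosen by name, 7 of 21887 protein-coding genes, and each was read in a window of its gene body plus 20 kb on each side. H3K27ac, the acetylation of histone H3 at lysine 27 found at promoters and enhancers in use, was mapped in whole cortex lysate of mouse embryos at E15.5 by immunoprecipitation of native chromatin. The 3 WT libraries came from Prdm16 flox/flox embryos and the 3 conditional knockout (cKO) libraries from Emx1Ires-Cre; Prdm16flox/flox embryos, so that both groups carried the floxed allele of Prdm16, a zinc-finger chromatin regulator gene. Emx1 drives Cre in dorsal forebrain progenitors and their progeny, and cells of other origin in the lysate keep Prdm16. Whole tissue was read, so fewer cells carrying the mark and less mark per cell cannot be told apart. The labels do not say whether replicates came from separate embryos, and a p-value here reflects how far these samples vary, possibly for technical reasons alone.

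Neurog1 and Neurog2 start neuronal differentiation in progenitors of the dorsal forebrain. They pair with E proteins, bind E-box DNA (CANNTG) and switch on Notch ligands and the NeuroD genes, while Id proteins hold E proteins back and Hes proteins repress proneural genes. Eomes marks intermediate progenitors, the dividing cells between radial glia and neurons. Neurod1 follows in newborn neurons, and Neurod2 and Neurod6 are kept on in maturing pyramidal neurons.

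Each library is one list of peaks made by the authors, with no read counts, so that the sequencing depth is unknown and the values below are numbers, lengths and ranks of peaks. The lists held 48168 to 75563 peaks covering 53.9 to 92.1 Mb. WT replicate 2 was the longest list and WT replicate 3 the shortest. The library identifiers fall into 2 numbers, one shared by replicates 1 and 2 of each genotype (called batch A) and the other by both replicates 3 (batch B). The 7 windows held 24 to 29 peaks per list. At Prdm16 itself, bases under peaks (scaled as below) averaged 79360.3 ± 2655 in WT against 96569 ± 2965 in cKO (SD, n = 3; limma log2 change 0.28 ± 0.11, adjusted p = 0.359), which says nothing of whether its exons were removed.

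All 7 genes matched the RefSeq promoter table (GRCm38.p6, the assembly behind mm10), which gives 8 start sites for them because Neurod4 has 2. The promoters below are shown because they differ in what they hold and in what lay over them. They are the 250 bases before the start site, 5′ to 3′ on the strand of the gene, in lower case with E-boxes (CANNTG) and TATATAA in capitals. Neurog2 lies on the plus strand at chr3:127632886-127633135, Eomes on the plus strand at chr9:118477939-118478188, Neurod2 on the minus strand at chr11:98329646-98329895 and Neurod4 (first start site) on the minus strand at chr10:130280255-130280504.
Neurog2: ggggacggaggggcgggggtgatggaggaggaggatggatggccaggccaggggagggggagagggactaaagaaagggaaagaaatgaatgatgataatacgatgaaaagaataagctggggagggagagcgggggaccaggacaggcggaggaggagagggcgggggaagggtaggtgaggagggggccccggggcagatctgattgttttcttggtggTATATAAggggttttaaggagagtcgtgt
Eomes: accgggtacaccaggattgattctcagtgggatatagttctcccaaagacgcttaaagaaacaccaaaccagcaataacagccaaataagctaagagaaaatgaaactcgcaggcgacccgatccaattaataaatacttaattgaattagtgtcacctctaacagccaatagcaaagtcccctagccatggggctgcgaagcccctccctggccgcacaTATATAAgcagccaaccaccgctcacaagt
Neurod2: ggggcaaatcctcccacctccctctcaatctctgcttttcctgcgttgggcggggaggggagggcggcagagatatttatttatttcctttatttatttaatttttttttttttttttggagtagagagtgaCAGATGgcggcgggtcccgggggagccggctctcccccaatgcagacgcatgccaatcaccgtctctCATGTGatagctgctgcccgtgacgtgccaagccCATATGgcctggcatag
Neurod4: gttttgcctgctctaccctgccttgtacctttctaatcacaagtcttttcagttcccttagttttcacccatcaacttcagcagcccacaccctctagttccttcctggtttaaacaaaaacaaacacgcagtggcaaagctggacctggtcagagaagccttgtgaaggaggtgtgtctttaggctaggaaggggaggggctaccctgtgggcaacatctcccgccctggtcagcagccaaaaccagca
In the printed stretches Neurog2 and Eomes held no E-box but the string TATATAA, starting 29 and 30 bases upstream of the start site. Neurod2 held 3 E-boxes, CAGATG at 118, CATGTG at 51 and CATATG at 17 bases upstream. The printed Neurod4 stretch held neither string.

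Motifs were counted in windows of 300 bases (250 before to 50 after the start site) on both strands. An E-box was found in 5 of the 8 windows, those of Neurod1, Neurod2, Neurod6, Neurog1 and the second start site of Neurod4, against 69.0% of the 21263 windows of protein-coding genes. CAGATG or CATCTG, forms of the E-box, stood in 1 of the 8 windows (Neurod2) against 14.6% of all windows, and CAGCTG, another form, in 1 (the second start site of Neurod4) against 15.6%. The T-box string AGGTGTGA or TCACACCT was in 0 of the 8 windows and in 1.15% of all. TATATAA or TTATATA, a search added after the sequences were seen, was in the windows of 3 of the 7 genes (Eomes, Neurod1 and Neurog2) against 3.13% of all windows. The Neurod1 copy started 31 bases upstream of its start site. These are matches of letters and were not read as binding sites.

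The start site lay under a peak in all 6 lists for 6 of the 7 genes, against 53.4% of 17492 protein-coding genes with a promoter window. Neurod4, a NeuroD relative that acts in neuronal differentiation, was the exception. Its start site was under a peak in WT replicates 1 and 2 and cKO replicate 1, and in no peak in the other 3 lists. The merged peaks of the 6 lists gave 29 regions in the 7 windows, of which 20 had a peak in every list. They made up 69.0% of the 29, against 46.4% of 85918 regions in all. By place, 7 regions covered a start site, 13 lay upstream, 7 downstream and 2 in gene bodies. The 4 regions found in a single list were all from WT replicate 2, the longest list, which also gave 51.8% of the single-list regions of the whole series. The map of peaks around the start sites shows these regions.

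**Figure D1:**
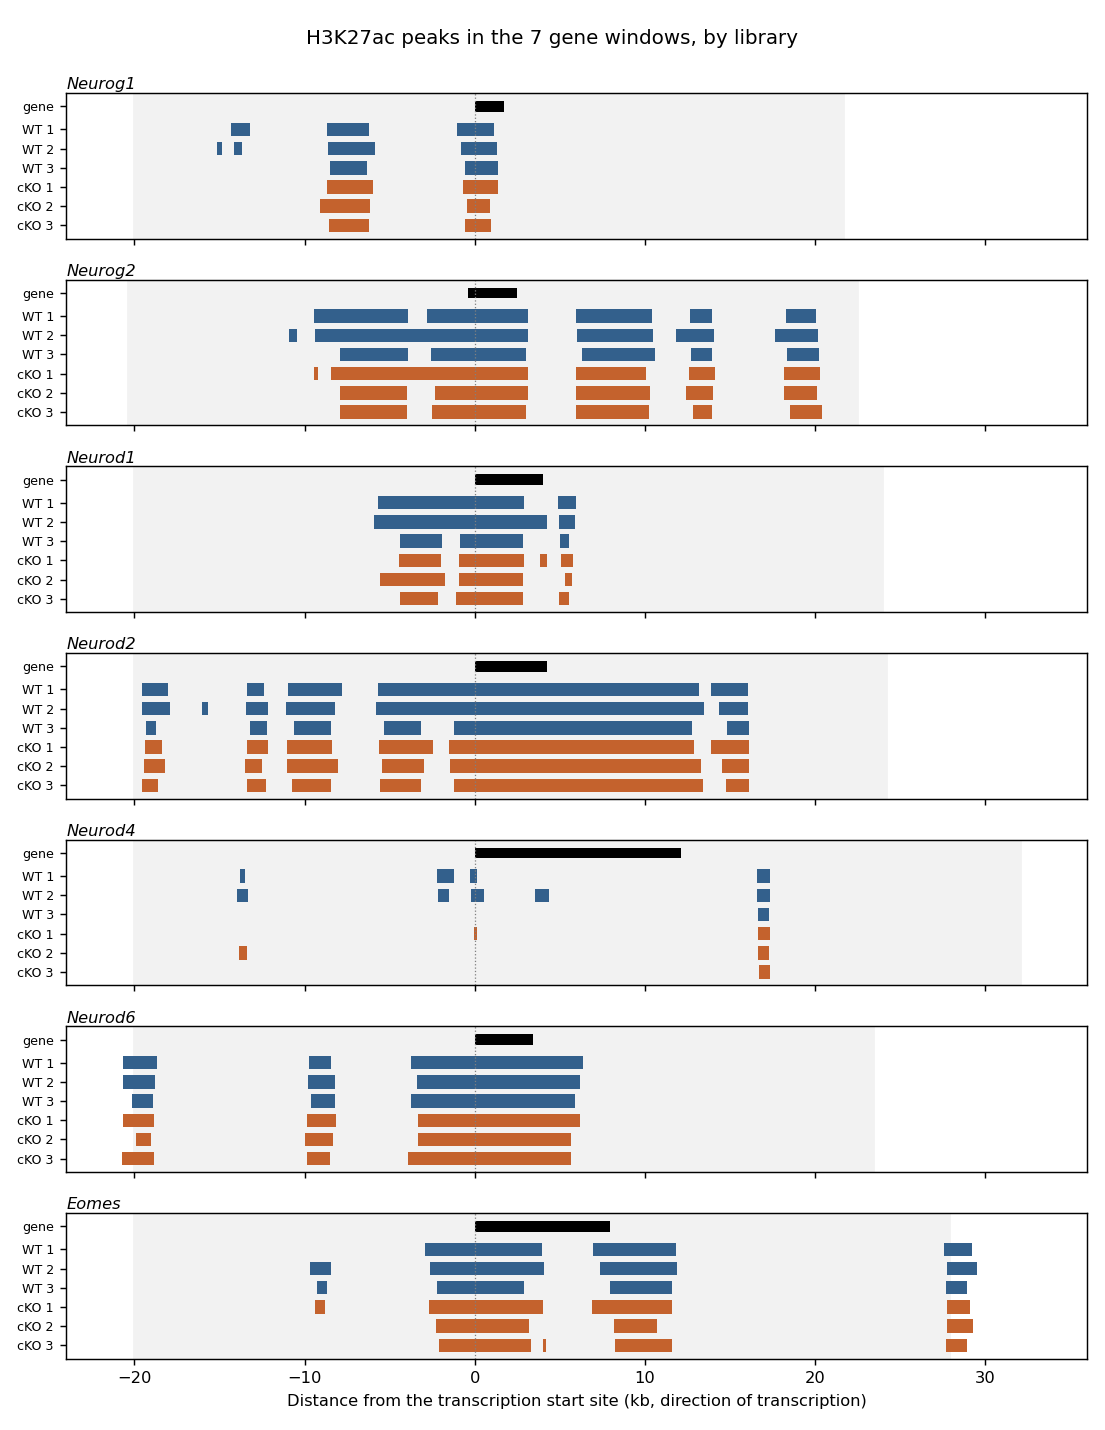
Peaks of each library (rows, WT in blue and cKO in orange) around the start sites of the 7 genes, with distance in kb along the direction of transcription, the gene body in black and the window of 20 kb on each side shaded. All 6 libraries had peaks over every start site except that of Neurod4, and the 4 regions seen in a single library are in WT replicate 2.

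Neurog1 (chromosome 13, 56250478 to 56252180, minus strand) had a shorter covered length than the other genes here except Neurod4, though in WT it was longer than that of 62.6% of the genes tested. Its covered length, the bases of its window that lay under a peak, was 5769, 5609 and 4133 bp in WT replicates 1 to 3 and 4795, 4235 and 3816 bp in cKO replicates 1 to 3. The genotypes overlapped, and replicate 3 was the lowest in each. The peak over the start site was 1324 to 2175 bp wide with a -log10 q of 3.47 to 5.69 (the values of the authors' peak caller, used within a list). Positions are given from the start site, negative upstream. A second region, from -9.09 to -5.87 kb, was present in all 6 lists. It was 2475, 2751 and 2148 bp long in WT and 2713, 2911 and 2319 bp in cKO, longer than the start site peak in every list. The remaining regions, farther upstream, were present in WT replicate 2 and, for 1 of them, in WT replicate 1.

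Neurog2 (chromosome 3, 127632733 to 127635636, plus strand) lay in a broad acetylated stretch. Its covered length was 19011, 22196 and 17029 bp in WT and 19536, 17352 and 16773 bp in cKO, 39.1 to 51.7% of the window. The highest value was in WT replicate 2 and the lowest in cKO replicate 3, and the genotypes overlapped. The region over the start site ran from -9.47 to 3.14 kb. In WT replicates 1 and 3 and cKO replicates 2 and 3 it was broken by a gap of 1133 to 1619 bp that began at -3986 to -3925 bp. WT replicate 2 had no gap and cKO replicate 1 had one of 815 bp near the far upstream edge, and there the peak over the start site was 12508 and 11545 bp wide, against 5479 to 5953 bp in the other 4 lists. A second region 5.93 to 10.6 kb downstream of the start site, past the gene end, was of nearly constant length, 4458, 4482 and 4321 bp in WT and 4109, 4343 and 4294 bp in cKO. A pair of smaller regions, 11.8 to 14.1 and 17.7 to 20.4 kb downstream, were also present in all 6 lists. The body of Zgrf1, a DNA repair helicase gene, reaches into the window on the upstream side.

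Neurod1 (chromosome 2, 79452637 to 79456636, minus strand) had 9561, 11128 and 6723 bp in WT and 7404, 7940 and 6824 bp in cKO. As deposited the genotypes overlapped through WT replicate 3. WT replicates 1 and 2 had a single peak of 8561 and 10155 bp over the start site. In WT replicate 3 and all 3 cKO lists the stretch was broken by a gap of 851 to 1054 bp that began at -2137 to -1760 bp, and the peak over the start site was 3708 to 3953 bp wide. In these 4 lists the strongest peak was the piece upstream of the gap, with a -log10 q of 25.7 to 34.2 against 13.8 to 25.7 over the start site. In cKO replicate 1 a further gap lay downstream of the start site, between peaks that ended at 2860 bp and began at 3802 bp. A short region past the gene end, from 4.92 to 5.92 kb, was present in all 6 lists (381 to 1000 bp).

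Neurod4 (chromosome 10, 130268152 to 130280254, minus strand) had the shortest covered length of the 7, with 2448, 3607 and 653 bp in WT and 862, 1135 and 664 bp in cKO. WT replicates 1 and 2 were high, while WT replicate 3 was lower than every cKO list. A single region of 653 to 800 bp, 16.6 to 17.4 kb downstream of the start site and past the gene end, was present in all 6 lists. Everything else came from weak peaks. The region over the start site was 410, 741 and 0 bp in WT and 177, 0 and 0 bp in cKO, with a -log10 q of at most 2.95. A region from -2199 to -1227 bp was present in WT replicates 1 and 2 alone (973 and 627 bp).

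Neurod2 (chromosome 11, 98325415 to 98329645, minus strand) had the longest covered length of the 7. It was 26834, 27212 and 21212 bp in WT and 24647, 24089 and 22674 bp in cKO, 48.0 to 61.5% of the window. WT replicates 1 and 2 were above every cKO list and WT replicate 3 below them. The region over its start site spanned 19316 bp, rank 43 by length among the 39889 regions present in all 6 lists. It was a single peak in WT replicates 1 and 2 (18880 and 19316 bp) and was broken by a gap of 942 to 1916 bp upstream of the start site in WT replicate 3 and the 3 cKO lists, where the peak over the start site was 13984 to 14773 bp wide. The strongest peak of the window stood from -11.1 to -7.81 kb, over Gm33099, a predicted gene. It was 3191, 2894 and 2184 bp long in WT and 2668, 3010 and 2248 bp in cKO. Ppp1r1b, the gene of the phosphatase inhibitor DARPP-32, also reaches into this window, and a region from -19.6 to -17.9 kb overlaps it.

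Neurod6 (chromosome 6, 55677818 to 55681263, minus strand) had the strongest peak of the 7 genes in every list and the most even covered length of them. The covered length was 12666, 12410 and 12184 bp in WT and 12395, 11498 and 12112 bp in cKO. The genotypes overlapped, and cKO replicate 2 was the lowest. One unbroken peak of 8977 to 10117 bp covered the gene and its start site in each list. By -log10 q it ranked 91, 82 and 203 in the WT lists and 143, 151 and 282 in the cKO lists, that is within the top 0.109 to 0.513% of each. A region from -10 to -8.15 kb was present in all 6 lists, as was one from -20.7 to -18.7 kb that reached past the window and was cut by the window edge.

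Eomes (chromosome 9, 118478186 to 118486132, plus strand) had 12147, 12626 and 9499 bp in WT and 12142, 8252 and 9133 bp in cKO. WT replicates 1 and 2 and cKO replicate 1 were high, and the other 3 lists were low. The peak over the start site was 6929, 6709 and 5075 bp wide in WT and 6675, 5485 and 5406 bp in cKO. A second region from 6.91 to 11.9 kb, across the gene end, was 4869, 4527 and 3606 bp long in WT and 4674, 2556 and 3340 bp in cKO, and also overlapped between genotypes. The strongest Eomes-window peak of 5 lists (the exception was WT replicate 3) lay at 27.6 to 29.5 kb downstream, over Golga4, a golgin gene, and was cut by the window edge. A weak region from -9675 to -8465 bp was present in WT replicates 2 and 3 and cKO replicate 1.

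Peaks were ranked within each list by -log10 q and by width. For Neurog2, Neurod1 and Neurod2 the strongest peak ranked in the top 2.31 to 11.7% of its list, and for Eomes in the top 11.5 to 20.6%. In every list but WT replicate 3 that Eomes-window peak was the one over Golga4, not the one over the Eomes start site. For Neurog1 and Neurod4 the strongest peak ranked between 29.6 and 62.5%. By width, the widest Neurod2 peak ranked 36 to 52 in each list, and that of Neurod6 stayed within the top 0.276%. The widest Neurog1 peak was in the top 6.12 to 10.1%, so Neurog1 stood higher by width than by strength. Ranks of lists of different lengths are not compared between genotypes.

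**Figure D2:**
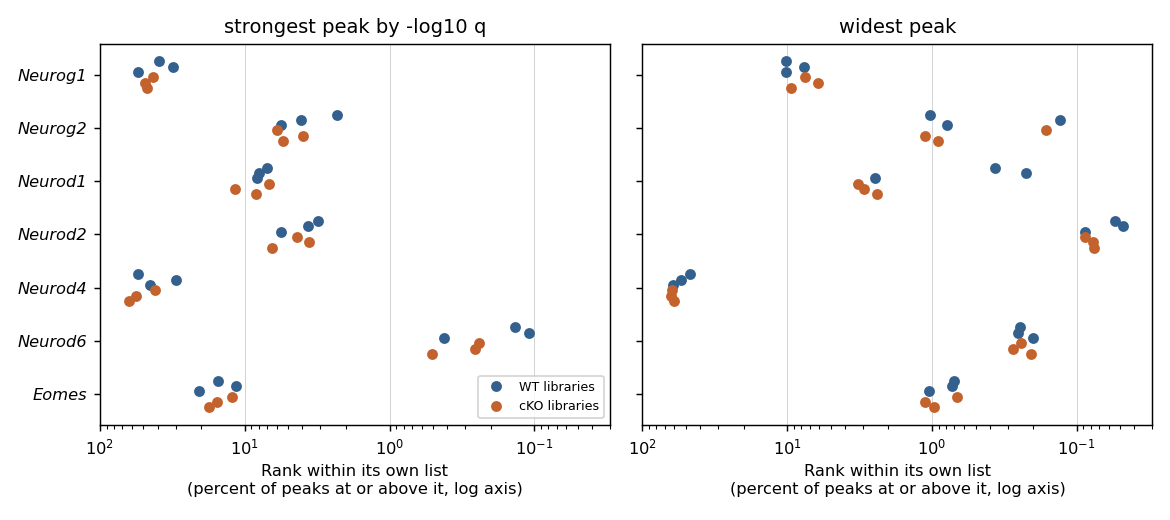
Rank of the strongest peak (left, by -log10 q) and of the widest peak (right) of each gene window within its own list, as the percent of peaks at or above it on a log axis, with 1 point per library (WT blue, cKO orange). The Neurod6 points lie at 0.109 to 0.513% on the left, and those of Neurog1 and Neurod4 at 29.6 to 62.5%.

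The next comparison asked whether these 7 loci carried more or less H3K27ac in the cKO cortex. Covered length was scaled so that every list had the same total, which multiplied WT replicate 3 by 1.35 and WT replicate 2 by 0.79 (0.874 to 1.14 for the other 4). Log2 of the scaled length plus 500 bp was fitted with limma over all 15359 genes with a mean of at least 1000 bp, with batch as covariate, and a call was a Benjamini-Hochberg adjusted p under 0.05. Fold changes on this scale understate the change of short lengths. Of the 7 genes, 0 passed, where 0.69% of all genes tested did (0.371% longer and 0.319% shorter in cKO). At an unadjusted p under 0.05 stood 1 of the 7 (Neurod4, shorter in cKO), against 9.95% of all genes (4.29% for shorter ones alone). Neurod4 reached the 1000 bp minimum through its WT lengths, since its cKO mean lay below it, so nothing is read from that count. The change was negative for 5 and positive for 2, with a median of -0.11, against a median of 0.05 and 34.7% negative over all genes tested. Neurod4 was among the 5, so nothing is read from this contrast either. The median also moved with the settings. It was -0.21 without scaling (-0.05 over all genes) and 0.03 with 2 kb around gene ends (0.07 over all genes), where 6 of the 7 could be tested.

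Neurod4 had the largest change of the 7. Its scaled length was 2139, 2850 and 882 bp in WT and 860.3, 1166 and 760.0 bp in cKO. WT replicate 3 lay among the cKO lists, so the genotypes overlapped. The log2 change was -0.70 ± 0.17 (SE, 95% interval -1.07 to -0.33), with an adjusted p of 0.104 by limma, with 0.260% of the genes tested lower. It was -0.98 in batch A and -0.13 in batch B, that is, nearly all of it stood in batch A. Its scaled mean was 1957 ± 996 bp in WT against 929 ± 212 bp in cKO (SD, n = 3), so that the WT libraries alone carried it over the 1000 bp minimum, and without that minimum the limma adjusted p was 0.643. The call depended on the settings. Neurod4 passed in 4 of the 17 alternatives in which it could be tested, among them without cKO replicate 2 (limma adjusted p = 0.0268) and with the gene body plus 5 kb (0.0317) or plus 100 kb (0.0345). Without WT replicate 2 it was -0.52 with an adjusted p of 0.436, and without scaling the adjusted p was 0.827. In lists reduced to the 48168 strongest peaks its covered length was 1773, 793 and 653 bp in WT and 862, 656 and 664 bp in cKO, below the minimum for testing. Its longer lengths thus stood in the 2 longest lists, and the part of list length in the difference was not tested.

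Neurod1 was the 1 gene of the 7 whose scaled lengths did not overlap between genotypes, 8353, 8791 and 9078 bp in WT and 7390, 8157 and 7810 bp in cKO. Such separation was found in 11.6% of all genes tested (4.54% shorter and 7.08% longer in cKO). At Neurod1 it stood only after scaling, which raised WT replicate 3 from 6723 to 9078 bp. As deposited, WT replicate 3 was the lowest of all lists. It was also the lowest in lists reduced to the 48168 strongest peaks, before scaling (6723 bp against 6960, 7559 and 6824 bp in cKO). Its log2 change was -0.16 ± 0.11 (SE, 95% interval -0.39 to 0.08, limma adjusted p = 0.703), with -0.13 in batch A and -0.20 in batch B.

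For the neurogenins no difference passed, and the genotypes overlapped. The scaled length of Neurog1 averaged 5017 ± 575 bp in WT against 4501 ± 246 bp in cKO (SD, n = 3), with a log2 difference of -0.14 ± 0.12 (SE, interval -0.39 to 0.12, limma adjusted p = 0.772). Neurog2 averaged 19046 ± 3451 and 18841 ± 891 bp, a change of -0.002 ± 0.12 (interval -0.26 to 0.26, adjusted p = 0.997). Its change was 0.12 in batch A and -0.25 in batch B. The batches thus differed in sign for Neurog2, as they did for Neurod2 and Neurod6.

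The genes of maturing neurons and Eomes also stayed within the spread between libraries. Neurod2 averaged 24528 ± 3695 bp in WT against 25100.1 ± 741 bp in cKO (SD, n = 3), with a log2 difference of 0.04 ± 0.11 (SE, interval -0.20 to 0.29, limma adjusted p = 0.923), with 0.13 in batch A and -0.14 in batch B. Neurod6 had 12441 ± 3531 and 12682 ± 1060 bp, a change of 0.06 ± 0.12 (interval -0.21 to 0.33, adjusted p = 0.905), with 0.21 and -0.24 by batch. The SD of its WT lengths was 241 bp as deposited and 3531 bp after scaling. Eomes had 11138 ± 1497 and 10350 ± 1823 bp, a change of -0.11 ± 0.14 (interval -0.41 to 0.19, adjusted p = 0.854), with -0.02 and -0.28 by batch. For the 6 genes other than Neurod4 the intervals reached at most from -0.41 to 0.33.

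**Figure D3:**
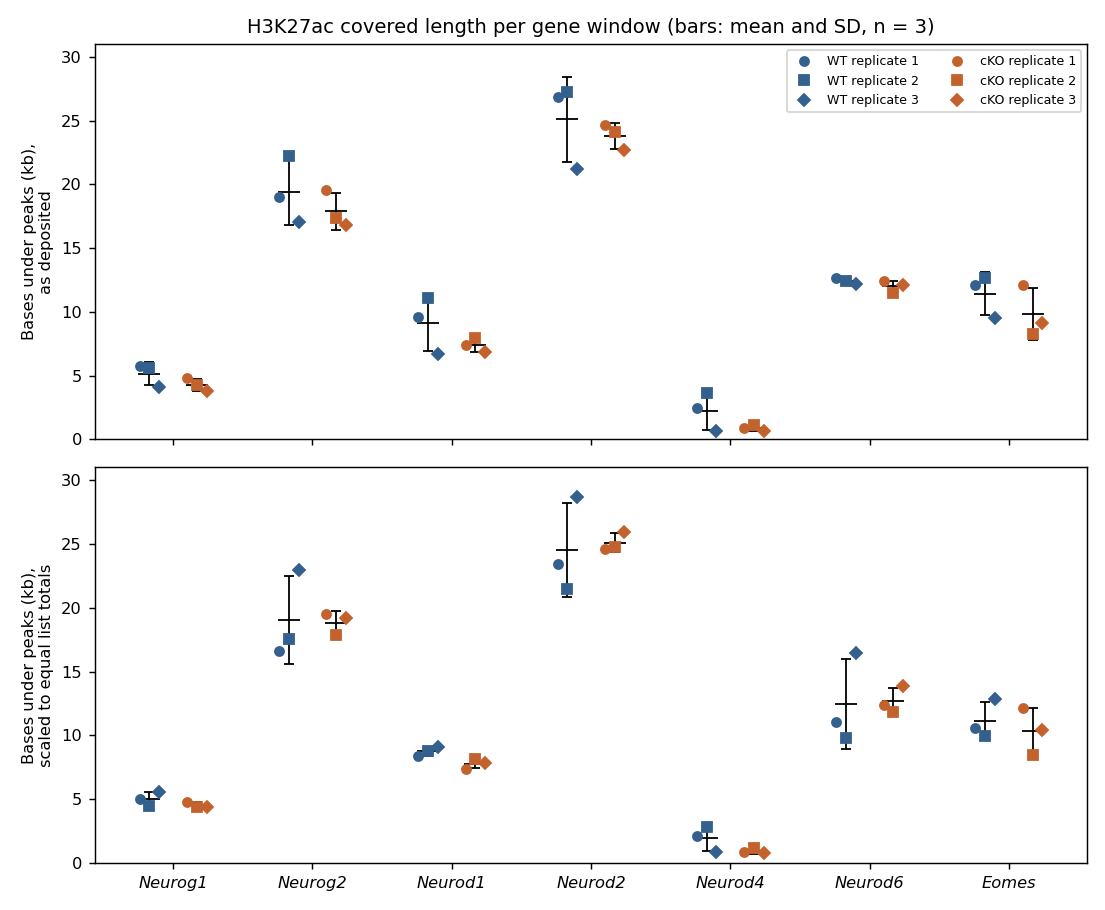
Bases under H3K27ac peaks (kb) in each gene window for the 6 libraries, as deposited (top) and scaled to equal list totals (bottom), with 1 symbol per replicate and bars for mean and SD (n = 3). Scaling raised WT replicate 3 (blue diamonds) above the other WT libraries in 6 of the 7 windows, and the genotypes overlapped in every scaled window except that of Neurod1.

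**Figure D4:**
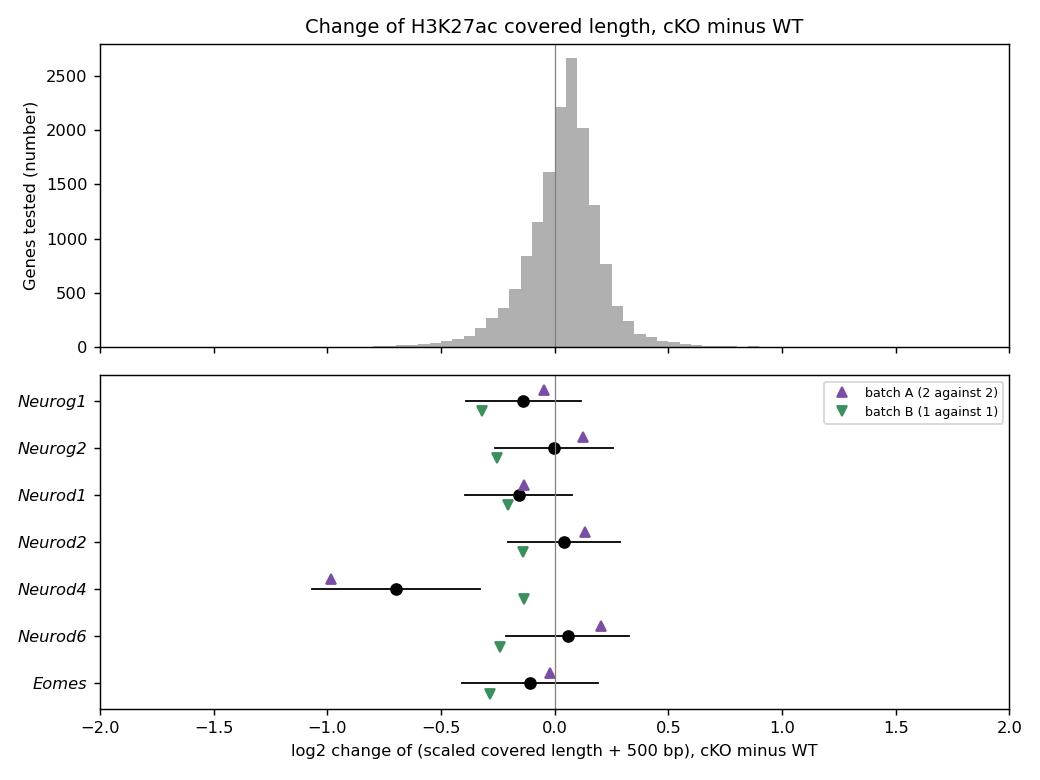
Top, the number of genes at each log2 change of scaled covered length (cKO minus WT) over the 15359 genes tested. Bottom, the change of each of the 7 genes (black point, with its 95% interval from limma) and the values within batch A (triangles up) and batch B (triangles down), where all batch B values are negative and those of batch A are positive for Neurog2, Neurod2 and Neurod6.

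The same fit was made for each merged region. Of the 29 regions, 21 reached the minimum of a 300 bp mean, and 0 of them passed (limma, lowest adjusted p 0.678), where 0.691% of 49763 regions did. At an unadjusted p under 0.05 there were 0 of 21, against 11.1% of all regions. The changes were negative for 11 and positive for 10. A peak in all 3 WT lists and in no cKO list was found in 0 of the 29 regions (0.907% of all regions), and the converse in 0 (0.347%). With 3 against 3 libraries an exact test of a single region cannot go below p = 0.1.

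Gaps inside the broad regions were compared within batches. Neurod1 and Neurod2 were unbroken in WT replicates 1 and 2 and broken in the other 4 lists, WT replicate 3 included. Within batch A both WT lists were thus unbroken and both cKO lists broken at these 2 genes, and in batch B both were broken. Neurod6 was a single peak in all 6 lists, Eomes in 5, and Neurog2 was broken in every list except WT replicate 2. Across the series, of 664 regions of at least 7 kb with a peak in every list, a single peak made up 68.7 and 70.5% in WT replicates 1 and 2 and 36.9% in WT replicate 3, against 52.0, 49.8 and 38.7% in cKO replicates 1 to 3. The share was thus higher in WT within batch A and not within batch B. WT replicates 1 and 2 were also the 2 longest lists, and the part of list length in the gaps was not tested.

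Genes around this pathway were described from lists chosen by role. Of 11 upstream regulators, 0 passed, 9 were positive and the median log2 change was 0.07. The lowest p values in that list belonged to Gli3, a transcription factor of the Hedgehog pathway (-0.53 ± 0.12, SE, limma adjusted p = 0.0703), and to the Notch effectors Hes5 (0.34 ± 0.11, adjusted p = 0.262), Hes1 (0.20, adjusted p = 0.607) and Hey1 (0.14, adjusted p = 0.800). Gli3 averaged 61090.4 ± 6726 bp in WT against 42022 ± 2195 bp in cKO (SD, n = 3), and Hes5 averaged 10813 ± 1519 and 13725 ± 808 bp. The genotypes did not overlap for Gli3, Hes5 or Hes1, as for 11.6% of all genes tested. Each of them kept its sign in both batches (-0.63 and -0.33 for Gli3, 0.40 and 0.20 for Hes5, 0.23 and 0.12 for Hes1). They were named for their low p values, so this is no further support. Of 7 E protein and Id genes 0 passed, with a median of 0.06. The first of them were Id2 (0.19), Id4 (0.16), Tcf4 (0.06) and Id1 (0.06).

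Of 18 target and intermediate progenitor genes 0 passed, with 10 negative and a median of -0.02. The lowest p values belonged to the somatostatin receptor gene Sstr2 (0.22 ± 0.12), the corepressor gene Cbfa2t2 (-0.20 ± 0.11), the Notch modifier gene Mfng (-0.16 ± 0.11) and the T-box gene Tbr1 (0.14 ± 0.11, all SE, limma adjusted p 0.583 to 0.736). Of 18 other neural bHLH and T-box genes, 11 were long enough to test, and 0 passed. Their median was 0.09, and Olig1 and Tbx20 were listed at 0 bp in all 6 libraries. In that list Olig3 (-0.48 ± 0.11, adjusted p = 0.0806) and Ptf1a (-0.53 ± 0.16, adjusted p = 0.195), bHLH genes of other brain regions, had 1731 ± 219 and 1653 ± 218 bp in WT and 1108 ± 214 and 1011 ± 362 bp in cKO (SD, n = 3). Tbx2 (0.42 ± 0.15) and Neurog3 (0.25 ± 0.12) followed.

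The tissue label was checked on marker genes. All 8 dorsal cortex markers were long enough to test, with summed scaled lengths of 197190 to 258245 bp in WT and 221126 to 239330 bp in cKO. The same held for 7 of 8 interneuron and ventral forebrain markers (121014 to 172199 and 148079 to 165200 bp), with Nkx2-1 at 0 in all lists. Of the oligodendrocyte, microglia, endothelium and meninges markers 3 of 5, 3 of 5, 2 of 4 and 1 of 4 were tested, with Olig1 and Col3a1 at 0. In these 6 lists 0 genes passed (limma). At an unadjusted p under 0.05 stood 2 of the 3 oligodendrocyte markers tested and 1 of the 3 microglia markers, against 9.95% of all genes, and they are named here after their values were seen. Cspg4 (0.49 ± 0.16, SE, limma adjusted p = 0.264) and Sox10 (0.38 ± 0.13, adjusted p = 0.283), genes of the oligodendrocyte lineage, were positive. The genotypes overlapped for both. Cspg4 averaged 2114 ± 962 bp in WT against 2988 ± 234 bp in cKO, and Sox10 1504 ± 531 against 2064 ± 317 bp (SD, n = 3). The changes were 0.22 and 0.29 in batch A and 1.03 and 0.56 in batch B, which held 1 library per genotype. Pdgfra, the other oligodendrocyte marker tested, was negative (-0.27 ± 0.13, limma adjusted p = 0.512). Of the microglia markers, the complement gene C1qa (-0.90 ± 0.39, limma adjusted p = 0.463) and Csf1r (-0.29) were negative and Aif1 (0.13) was positive. C1qa averaged 1358 ± 463 bp in WT against 746 ± 1093 bp in cKO (SD, n = 3). It reached the 1000 bp minimum through its WT lengths, so nothing is read from the microglia count.

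For Neurod4, the gene of the 7 with the largest change, the 3 genes with the most similar profile over the 6 libraries were Dnajc1, Thbs1 and Apob. Likeness was the root mean square difference of log2 scaled lengths, each centred on its gene mean, which was 0.14, 0.17 and 0.18. Dnajc1, a gene of a DnaJ co-chaperone, had 4856, 7059 and 2656 bp in WT and 2145, 2349 and 2071 bp in cKO, again highest in WT replicates 1 and 2. In the fit over all genes Dnajc1 passed (log2 change -0.91 ± 0.18, SE, limma adjusted p = 0.0433), while Thbs1 (-0.44, adjusted p = 0.314) and Apob (-0.71, adjusted p = 0.083) did not. Apob had 1506, 2293 and 924 bp in WT and 718, 724 and 729 bp in cKO. Like Neurod4, it reached the 1000 bp minimum through its WT lengths. The genes were chosen for their likeness to Neurod4, so their sign follows from the choice, and the likeness itself carries no test.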

How the data were processed

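H3K27ac was measured in 6 libraries (3 WT, 3 cKO) with 1 broad peak list each, and the 6 input libraries were not analysed here. Chromatin was cut with micrococcal nuclease without fixation, per the labels' protocols. The submitters' processing notes name MACS2 2.1.1, Bowtie2 2.2.8, cutadapt, FastQC and the mm10 build. Which control was used, the settings and any pooling before peaks were called are not given there. The deposited lists give each peak a fold enrichment ratio, a -log10 p, a -log10 q and a display score (not used), all by the authors' peak caller. The -log10 values ranked or filtered peaks within a list.

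Covered length per gene window (RefSeq table of GRCm38.p6) or merged region (peaks overlapping by at least 1 bp or touching) was scaled to the total covered length of each list and tested with limma 3.58.1 in R 4.3.3 on log2(length + 500 bp), with batch as covariate and Benjamini-Hochberg adjustment over all features. Motifs, ranks and counts used Python 3.11.15 with numpy 2.4.6 and pandas 2.3.3. The fits were also run on simulated data that held no batch or list-length effect, and nothing is concluded from that run here. Protein sequences were not used here.

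The 7 genes, the lists and the tests were chosen with earlier results of these data known. Named genes were the 7, Prdm16, up to 4 genes of each pathway list with the smallest p, genes reaching into a window or its regions, and the 3 most alike to the gene with the largest change. Alternatives were stricter or equal-length lists, each library left out, batch A alone, other covariates, pseudocounts, filters, scalings, windows and merging distances. Peak lists cover called peaks, so height is not measured and precision is limited by 3 libraries per genotype.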

Additional observations from a re-analysis of the deposited data

How the results depend on the processing

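The count of 0 of the 7 genes called held in 16 of 20 alternatives. It was 1 (Neurod4) with a replicate block, with the gene body plus 5 kb and with the gene body plus 100 kb, and 0 to 1 with each library left out (1 without cKO replicate 2). Neurod4 could not be tested with a -log10 q of at least 5, in equal-length lists or within 2 kb of the gene ends, being under the minimum length. Omitting either replicate 3 left 1 library in batch B, which the batch covariate fits exactly. Those fits gave the same log2 changes as batch A alone, so they are not separate from it among the 20 alternatives. The sign of Neurod1, Neurod4 and Neurog1 held in all fits made, while their size moved, from -0.26 to -0.028 for Neurod1, -0.24 to -0.024 for Neurog1 and -0.98 to -0.40 for Neurod4. Neurog2 turned to 0.12 in batch A alone, to 0.093 with 5 kb, 0.049 with 100 kb and 0.093 with 2 kb around gene ends, and ran from -0.074 to 0.12 with a library left out (positive when either replicate 3 was omitted). Neurod2 turned to -0.0024 in equal-length lists and -0.066 unscaled, and ran from -0.019 (WT replicate 2 omitted) to 0.13 with a library left out. Neurod6 turned to -0.048 unscaled. With a library left out it ran from -0.033 (WT replicate 2 omitted) to 0.21, with -0.0033 when cKO replicate 1 was omitted. Eomes turned to 0.025 with 2 kb around gene ends and ran from -0.27 to 0.0079 (cKO replicate 2 omitted). The median over all genes was 0.05, and -0.05 without scaling.

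The 106 genes called across the series became 38 with a -log10 q of at least 5, 58 in equal-length lists, 3 in batch A, 39 without the batch covariate, 39 and 208 with pseudocounts of 100 and 2000 bp, 0 with no filter (limma, 1528 at an unadjusted p under 0.05 with the filter and 1807 without), 1 without scaling, 18 with quantile normalization (4 longer and 14 shorter, against 57 and 49) and 42 when scaled to the sum over gene windows, an alternative chosen after seeing the data. With a library left out the count was 2 to 232. The 344 regions called became 650 in equal-length lists, 90 with no filter, 152 without scaling and 0 with each library left out (limma, 3876 to 5828 at an unadjusted p under 0.05). In the 7 windows regions called stayed at 0 in these fits, and regions in WT lists alone numbered 0 to 2 with a library left out (2 without WT replicate 3, at Neurog1 and Neurod4). The cause of these moves was not tested.

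The replicate block gave 168 genes, 0 regions (4997 at an unadjusted p under 0.05) and a limma adjusted p of 0.0298 for Neurod4. Same-numbered libraries correlated in their deviations from the genotype means by 0.13, 0.06 and 0.26 over 15359 genes, and WT replicate 2 correlated best with cKO replicate 1 (0.17). Such deviations still hold the batch difference, so these values cannot decide whether the numbers pair the samples.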
